A study of Mus musculus with 5 samples.

Results

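Clones 1D and 20B were the closest of the 10 pairs that can be formed from 5 clones of mouse cardiac progenitor cells, and were chosen for that closeness. They are 2 of the 5 clones, set here against each other and then together against clones 11B, 30 and 42. Each clone is a line grown from the left ventricle of adult Mus musculus aged 5 to 6 months, of the strain given as C67BL/6. The starting cells had been selected with an antibody to Sca-1, expanded, cloned and subcloned, and all 5 lines carry the label c-kit+. Each line is 1 clone and was measured once, on 1 Affymetrix array hybridised with its total RNA. No treatment, allele or time separates the clones in the labels, and the clone is the only variable they name. Culture, RNA preparation and array change with the clone, so their part in a difference cannot be told apart from that of the clone. The pair was picked on these same values, so its closeness and the genes below are a description with no test, and no difference has a replicate check.

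Cardiac progenitor cells selected for Sca-1 are a mixed stromal population of the adult heart, studied for the growth factors they release and for their capacity to take on other cell fates. A clone descends from a single cell, so lines from the same tissue can differ in the transcription factors, matrix genes and signalling molecules that they express and keep those differences in culture. Homeobox and forkhead factors, which pattern the embryo, are known to stay active in adult stromal cells according to where in the body the cells came from.

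Values are ratios on a linear scale, in which 1 is the median of a probe set over the 5 arrays or a floor set by the authors. A gene's difference is the mean log2 ratio of its measured probe sets in 1D minus that in 20B, so a positive value is higher in 1D, and 1 log2 unit is 2-fold. Such ratios compare clones for 1 gene but say nothing of the level of a gene against another gene.

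The promoters of 2 pairs of neighbouring genes are given first, because both members of each pair differed between 1D and 20B in the same direction. They are examples, since other neighbours did so too, such as Ndufaf2 and Ercc8 on chromosome 13, both higher in 1D. Mrpl32, a protein of the mitochondrial ribosome, and Psma2, a subunit of the proteasome core, lie head to head on chromosome 13 and were both lower in 1D. The windows of 250 bases before their starts are chr13:14613038-14613287 on the minus strand for Mrpl32 and chr13:14612992-14613241 on the plus strand for Psma2, in RefSeq's GRCm38.p6, and overlap by 204 bases. Capitals mark the only copy of GCGCATGCGC, the centre of the longest self-complementary stretch of the Mrpl32 window, which is 16 bases long. It was chosen from this window and matches the known core motif of NRF1, an activator of genes for mitochondrial proteins. Both strands were searched, and the motif reads the same on each.
Mrpl32: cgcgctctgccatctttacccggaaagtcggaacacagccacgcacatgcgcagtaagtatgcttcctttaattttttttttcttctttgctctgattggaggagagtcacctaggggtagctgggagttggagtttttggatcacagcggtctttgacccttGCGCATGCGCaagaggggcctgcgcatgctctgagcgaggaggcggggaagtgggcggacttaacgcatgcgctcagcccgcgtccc
Psma2: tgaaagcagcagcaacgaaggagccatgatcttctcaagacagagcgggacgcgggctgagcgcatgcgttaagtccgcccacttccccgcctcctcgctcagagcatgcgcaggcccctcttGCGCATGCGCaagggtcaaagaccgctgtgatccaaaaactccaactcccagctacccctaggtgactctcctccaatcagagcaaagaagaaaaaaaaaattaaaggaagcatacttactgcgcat
The motif begins 87 bases before the start of Mrpl32 and 127 bases before that of Psma2, within the part that the windows share. It occurs in 0.781% of the 27025 RefSeq promoters of this length, and among the 93 promoters found for genes that differed at least 2-fold (1.25% of measured genes) it occurs in these 2 alone. Dlx1 and Dlx2, paired homeobox genes that lie tail to tail on chromosome 2, were both higher in 1D. Their windows are chr2:71529195-71529444 on the plus strand for Dlx1 and chr2:71546755-71547004 on the minus strand for Dlx2. They are shown for contrast, since they do not overlap and hold no copy of the motif.
Dlx1: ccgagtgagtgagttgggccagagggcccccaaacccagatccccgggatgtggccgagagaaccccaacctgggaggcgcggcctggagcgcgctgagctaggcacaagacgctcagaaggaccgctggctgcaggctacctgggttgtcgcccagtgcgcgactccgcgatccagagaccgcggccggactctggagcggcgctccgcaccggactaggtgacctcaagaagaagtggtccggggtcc
Dlx2: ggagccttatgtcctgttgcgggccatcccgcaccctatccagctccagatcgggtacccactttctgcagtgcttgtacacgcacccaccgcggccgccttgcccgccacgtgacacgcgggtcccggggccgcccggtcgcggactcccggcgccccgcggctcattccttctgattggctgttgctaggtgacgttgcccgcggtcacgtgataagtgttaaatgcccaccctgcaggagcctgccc

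Most genes lay close together in the 2 clones. Of 9435 measured genes 118 differed at least 2-fold (1.25%), with 59 higher in 1D (0.625%) and 59 lower (0.625%). After quantile normalization of the arrays the split was 49 higher and 96 lower. At least 4-fold was reached by 12 genes (0.127%), 4 higher in 1D and 8 lower, and at least 1.5-fold by 643 genes (6.82%). The median difference was 0, the median absolute difference was 0.10 log2 units, and 90.2% of genes lay within 0.5 log2 units. In the other 9 pairs the median absolute difference was between 0.11 and 0.16, and the number of genes at least 4-fold apart was between 19 and 56. The nearest other pair was 11B and 20B, with 19 such genes.

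These sizes stand beside an error of similar order for single probe sets. Where 2 probe sets measured the same gene, their 1D minus 20B differences disagreed with a standard deviation of 0.44 log2 units over 6681 such pairs, or 0.31 for a single probe set. Differences between cultures or RNA preparations are not part of that figure. The 18 hybridization controls differed by a median of 0.03 with a standard deviation of 0.10. The 27 poly-A spike-in controls were lower in 1D by a median of -0.22, with a range of -1.66 to 0.01. For Actb, the ratio of the 5' probe set divided by that of the 3' one was 1.08 in 1D and 1.00 in 20B. For Gapdh it was 1.16 in 1D and 1.03 in 20B. Each probe set had its own scale, so these quotients compare the clones and do not measure RNA integrity. The part of these RNA measures in the gene differences was not tested. Of the 118 genes, 84 rested on 1 probe set, and in 32 of the 34 with several, every probe set pointed the same way, but in only 12 did every probe set reach 2-fold. With all probe sets of a gene averaged, flat ones included, 66 of the 118 stayed 2-fold apart. Among genes described below, those that did not included Vcan (0.50), Csgalnact1 (0.94), Ptbp2 (0.90), Nmd3 (0.83), Stox2 (0.27), Ccne1 (0.62) and Gmps (0.47), on the higher side. On the lower side they included Yme1l1 (-0.71), Ppp2r2c (-0.94), Sod3 (-0.78), Fgfr2 (-0.69), Slit2 (-0.38) and Mastl (-0.79). These names are not the full list. For some other genes described below, the weakest values over all settings run were 0.60 for Slc40a1, 0.52 for Gsta3, 0.58 for Alg5 and 0.82 for Tcf4. Genes not described could fall lower, such as Msl3l2 at 0.09 and Cyb5d2 at 0.15. For lower genes described below the weakest values included -0.56 for Loxl1, -0.26 for Hecw1, -0.60 for Cdk13 and -0.13 for Dnajc1. Zkscan3 stood at -0.17 without probe sets that can bind several transcripts, and Arhgap21 at -0.04. The line at 2-fold has no gap beside it. On the higher side Cxxc1 and Spop lay just inside at 1.00 and Dnajc24 just outside at 0.997, and on the lower side Psma2 lay just inside at -1.01 and Col27a1 just outside at -0.999.

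The other clones give a point from which to read each gap. Among the 59 genes higher in 1D, 1D was farther than 20B from the median of 11B, 30 and 42 in 50, and 20B was farther in 9. Among the 59 lower genes 1D was farther in 29 and 20B in 30. Genes higher in 1D were thus mostly high in 1D, while genes lower in 1D were as often high in 20B as low in 1D.

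**Figure D1:**
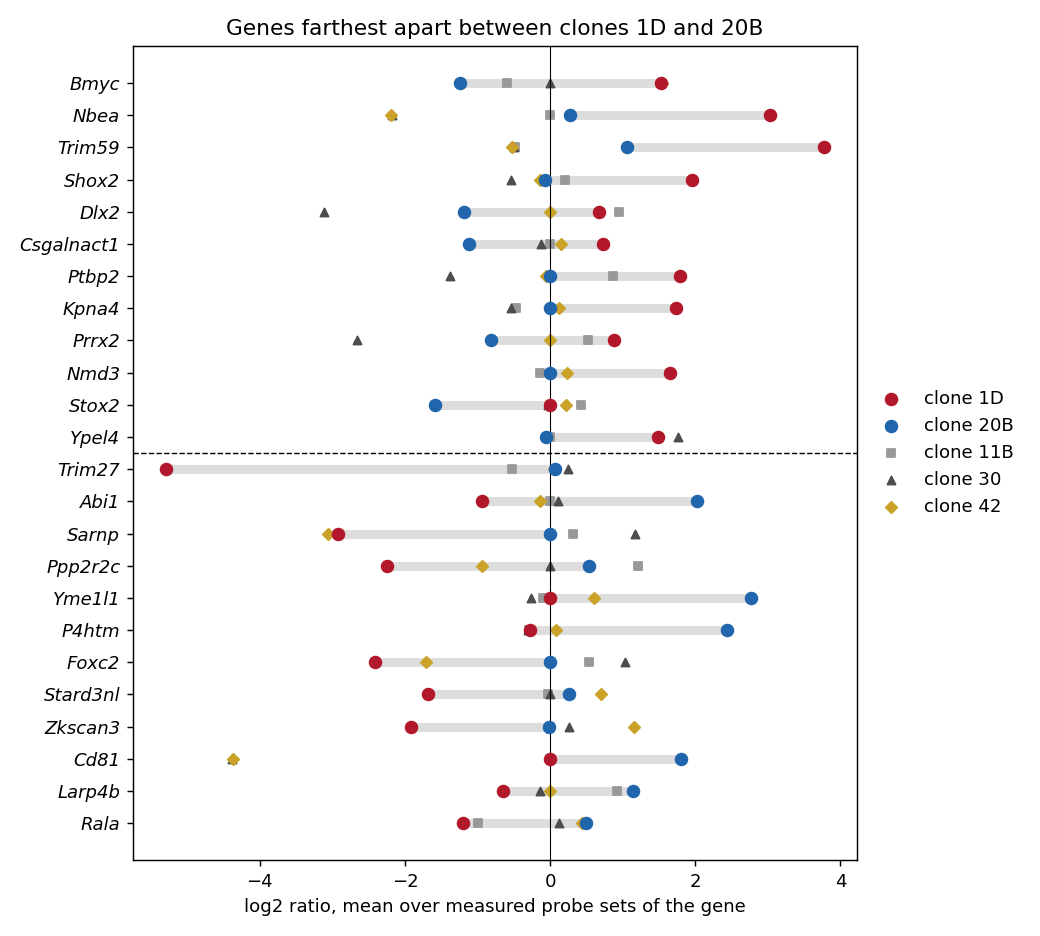
Log2 ratio of each clone (horizontal axis, mean over a gene's measured probe sets, 1 array per clone) for the 12 genes farthest higher in 1D, above the dashed line, and the 12 farthest lower, below it; grey bars join 1D and 20B. Trim27 in 1D is the most distant point, and the values of 11B, 30 and 42 often fall outside the interval between 1D and 20B.

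Several homeobox transcription factors were among the genes farthest higher in 1D. Shox2, needed for the pacemaker tissue of the sinoatrial node, had ratios of 4.24 in 1D and 1.00 in 20B, against 1.19 in 11B, 0.913 in 30 and 0.822 in 42, and a second probe set gave 3.55 in 1D and 0.910 in 20B. Its difference was 2.02, and 1D was high alone. Dlx2 had ratios of 1.60 in 1D and 0.441 in 20B, against 1.92 in 11B, 0.115 in 30 and 1.00 in 42, a difference of 1.86. Here 1D and 11B were high, 20B lay below 42, and 30 was far lower than all of them. Prrx2, a paired-related homeobox gene of mesenchyme, gave nearly the same order, with 1.84 in 1D and 0.571 in 20B, against 1.44 in 11B, 0.158 in 30 and 1.00 in 42. Dlx1 differed by 1.24, with ratios of 1.47 in 1D and 0.621 in 20B, against 1.00 in 11B, 0.991 in 30 and 1.08 in 42. Unlike Dlx2, Dlx1 was level in the other 3 clones, with 1D above them and 20B below. Tcf4, a basic helix-loop-helix partner of many lineage factors, differed by 1.25 over 5 probe sets, but these ran from 1.07 in 1D and 1.00 in 20B on one to 1.02 in 1D and 0.117 in 20B on another.

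Other genes higher in 1D act in the matrix, in RNA handling and in growth control. Versican, the chondroitin sulfate proteoglycan of the endocardial cushions encoded by Vcan, differed by 1.34. Its most divergent probe set had 2.00 in 1D and 0.615 in 20B, against 1.00 in 11B, 0.778 in 30 and 1.22 in 42. Csgalnact1, the enzyme that starts chondroitin sulfate chains, had 1.67 in 1D and 0.462 in 20B, against 1.00 in 11B, 0.918 in 30 and 1.11 in 42. For both genes 1D lay above and 20B below the other 3 clones on these probe sets. Bmyc, a Myc relative without the DNA-binding domain, had the widest gap at 2.77, with 2.87 in 1D and 0.422 in 20B, against 0.663 in 11B, 1.00 in 30 and 2.92 in 42. It was therefore about as high in 42 as in 1D. Ptbp2, a splicing repressor best known from neurons, had 3.47 in 1D and 1.00 in 20B, against 1.82 in 11B, 0.386 in 30 and 0.963 in 42. Ccne1, the cyclin of S phase entry, differed by 1.24, with 1.20 in 1D and 0.508 in 20B, against 0.671 in 11B, 1.14 in 30 and 1.00 in 42. In that gene 20B was the lowest clone, and 1D lay beside 30.

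Neurobeachin, a scaffold for protein kinase A on membranes encoded by Nbea, had ratios of 8.15 in 1D and 1.21 in 20B, against 1.00 in 11B, 0.222 in 30 and 0.219 in 42. Its values fall into 3 steps, with 1D highest, 20B and 11B between, and 30 and 42 lowest. Trim59, of the family of RING ubiquitin ligases, had 13.7 in 1D and 2.09 in 20B, against 0.713 in 11B, 0.706 in 30 and 0.696 in 42. Both clones of the pair were high, with 1D above 20B by 2.71. This probe set had been divided by a floor, and its ratios in 11B, 30 and 42 lay below that floor. The remaining genes of the farthest 12 were Kpna4, an importin alpha (1.73), Nmd3, the export adaptor of the large ribosomal subunit (1.66), Stox2 (1.58) and Ypel4 (1.54). Kpna4 and Nmd3 were each high in 1D alone on both of their probe sets. For Stox2, 20B stood at 0.334 while the other clones lay between 0.982 and 1.35. Ypel4 was high in 1D (2.81) and in 30 (3.39), against 0.966 in 20B.

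The genes lower in 1D included a few signalling molecules and a forkhead factor. Inhbb, which encodes the beta B subunit of activin B, had ratios of 0.134 in 1D and 0.716 in 20B, against 1.00 in 11B, 3.94 in 30 and 1.03 in 42. Both clones were below the other 3, with 1D farther down by 2.42. Adrenomedullin, a vasodilator peptide encoded by Adm, had 1.00 in 1D and 3.37 in 20B, against 2.65 in 11B, 0.281 in 30 and 0.319 in 42 on one probe set, and 1.00 in 1D and 2.08 in 20B on the other. Its high clones were 20B and 11B. Fgfr2, a receptor of fibroblast growth factors, differed by -1.03, and Slit2, a secreted guidance cue, by -1.15. Foxc2, a forkhead factor needed for vessels and the cardiac outflow tract, had 0.188 in 1D and 1.00 in 20B, against 1.45 in 11B, 2.04 in 30 and 0.305 in 42. It separated 1D and 42 from the other clones. Between 1D and 20B its difference was opposite in sign to those of the homeobox genes above, but over all clones it did not mirror them.

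Single genes of the cell surface, of the cytoskeleton and of defence against oxidants were also among the 59 lower in 1D. Cd81, a tetraspanin, had 1.00 in 1D and 3.48 in 20B, against 1.00 in 11B, 0.0480 in 30 and 0.0482 in 42. It formed 3 steps, with 20B highest, 1D and 11B level, and 30 and 42 lowest. Itga7, the laminin-binding integrin of muscle, had 1.00 in 1D and 2.30 in 20B, against 0.998 in 11B, 0.814 in 30 and 1.00 in 42. Abi1, a subunit of the WAVE complex that drives actin branching, differed by -2.96 and had 0.466 in 1D and 4.04 in 20B on one probe set, 0.408 in 1D and 3.22 in 20B on another and 0.746 in 1D and 5.12 in 20B on the third. On all of them 20B was well above and 1D below the other clones. On the first, the ratios of 11B, 30 and 42 recurred unchanged on 614 other probe sets, so that their closeness there is no measurement. Sod3, the extracellular superoxide dismutase, had 0.735 in 1D and 2.16 in 20B, against 1.00 in 11B, 1.53 in 30 and 0.962 in 42. Hmox1, heme oxygenase, had 0.430 in 1D and 1.00 in 20B, against 1.15 in 11B, 0.986 in 30 and 1.00 in 42. Sod3 was thus highest in 20B, and Hmox1 lowest in 1D.

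The widest gap of all was in Trim27, a RING ubiquitin ligase. Its probe sets had 0.0154 in 1D and 1.00 in 20B, 0.0143 in 1D and 1.15 in 20B, and 0.0752 in 1D and 1.00 in 20B, while 11B, 30 and 42 lay between 0.649 and 1.24. The mean difference was -5.36, and 1D was low alone; all of these probe sets are of the types that can bind more than 1 transcript. Sarnp, an mRNA export factor, gave 0.0629 in 1D and 1.00 in 20B on one probe set and 0.0399 in 1D and 1.00 in 20B on another, but 0.922 in 1D and 1.01 in 20B on the third. Clone 42 shared the low values of 1D on the first of these, at 0.0835, and on the second, at 0.0406. Ppp2r2c, a regulatory subunit of protein phosphatase 2A, had 0.210 in 1D and 1.45 in 20B, against 2.32 in 11B, 1.00 in 30 and 0.520 in 42. Yme1l1, an ATP-dependent protease on the inner mitochondrial membrane, had 1.00 in 1D and 6.79 in 20B, against 0.935 in 11B, 0.832 in 30 and 1.52 in 42. P4htm, a prolyl hydroxylase that acts on hypoxia-inducible factor, had 0.822 in 1D and 5.40 in 20B, against 0.815 in 11B, 0.813 in 30 and 1.06 in 42. For Yme1l1 and P4htm it was 20B that stood high. The remaining members of the farthest 12 were Stard3nl (-1.95), Zkscan3 (-1.90), Larp4b (-1.78) and Rala, a GTPase of the exocyst (-1.70). The probe sets of Zkscan3, a repressor of autophagy genes, disagreed, with 0.0780 in 1D and 0.965 in 20B on one, and 0.899 in 1D and 1.01 in 20B on the other.

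Genes were also read in 27 lists of pathways and structures. Of their 573 measured genes 13 were at least 2-fold higher in 1D and 12 lower, or 4.36%, above the 1.25% of all genes, but some lists include genes that earlier work on these data had already shown to differ. List medians lay between -0.13 and 0.14 log2 units, beside 0 for all genes, and 12 lists had no member 2-fold apart. The transcription factor list was the one with most calls. It had 4 of 30 measured genes at least 2-fold higher in 1D (Shox2, Dlx2, Tcf4 and Dlx1) and 1 lower (Foxc2), with a median of 0.03. The other 25, cardiac factors among them, lay within 1 log2 unit. All 12 measured Notch genes, 22 Wnt genes, 17 chemokines and cytokines, 17 matrix proteases and their inhibitors, 14 genes of cholesterol synthesis and 24 genes of the unfolded protein response also lay within it.

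**Figure D2:**
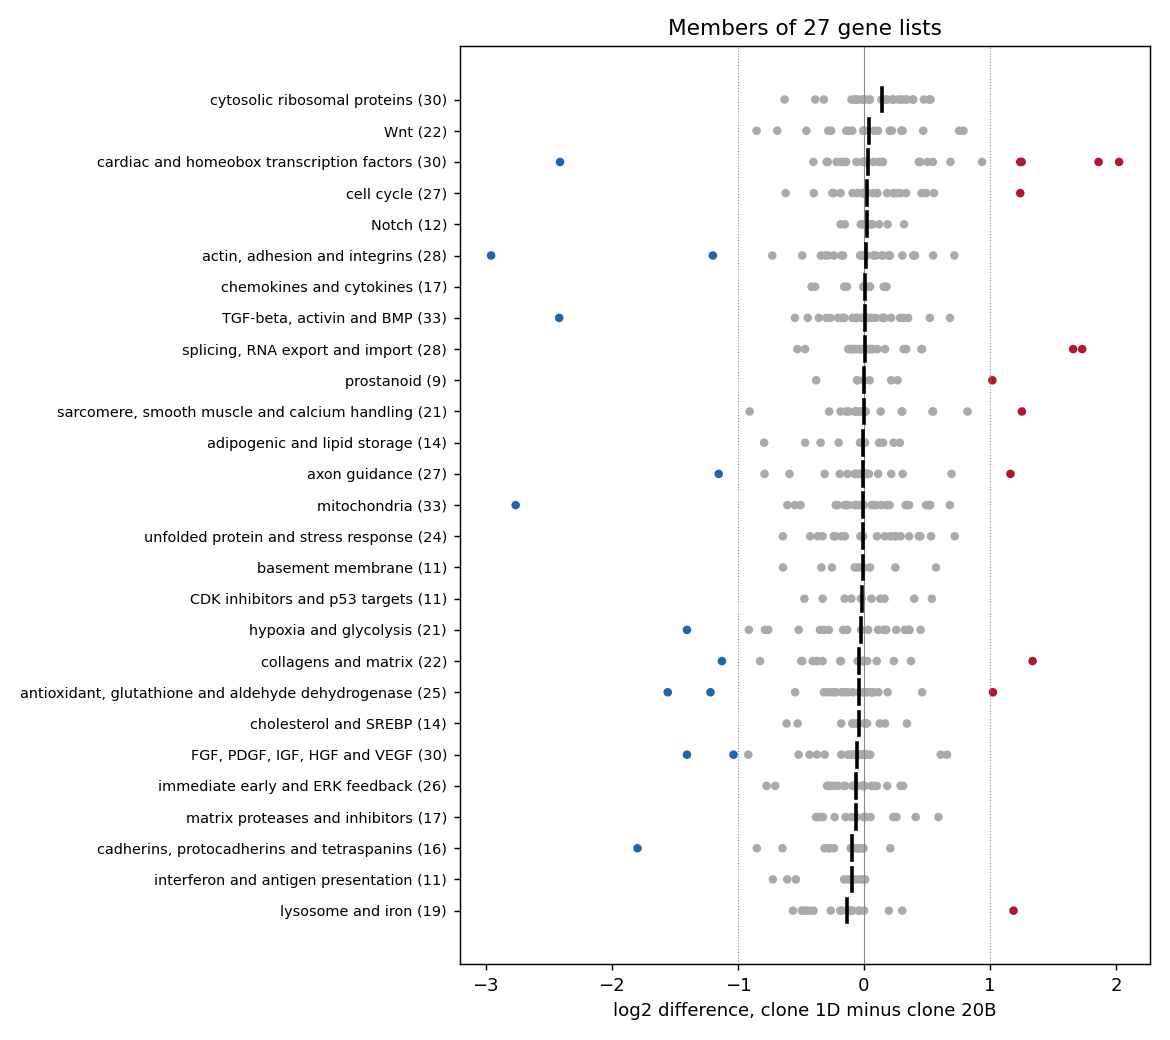
Log2 difference, 1D minus 20B (horizontal axis), of each measured member of 27 gene lists, ordered by the list median (black bar), with the number of measured members in brackets. Red points are at least 1 log2 unit higher in 1D and blue points at least 1 log2 unit lower; medians stay near 0 while single members reach past 2 in either direction.

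Some lists had most members on one side at small size. For any size at all, 49.8% of all measured genes were higher in 1D and 49.8% lower. The list counts below likewise take in members nearly level in the 2 clones, such as Egfr, Angpt2, Pcdh7 and Tap2, each at -0.004. Of 16 cadherins, protocadherins and tetraspanins 15 were lower in 1D and 1 higher, with a median of -0.09. Besides Cd81 they included Tspan4 (-0.85) and Cd151, a tetraspanin partner of laminin-binding integrins, at -0.65 over 5 probe sets. Of 30 growth factor and receptor genes of the FGF, PDGF, IGF, HGF and VEGF families 23 were lower and 7 higher, with a median of -0.05, from Adm at -1.40 to Fgf7 at 0.66. Of 11 interferon and antigen presentation genes 9 were lower and 2 higher, with Psmb9 of the immunoproteasome at -0.72 and Irf7, a transcription factor of the interferon response, at -0.54. Of 19 lysosome and iron genes 15 were lower and 4 higher, although Slc40a1, the iron exporter ferroportin, was 1.19 higher in 1D. Cytosolic ribosomal proteins went the other way, with 19 of 30 higher in 1D, a median of 0.14 and a range of -0.63 (Rps28) to 0.53 (Rpl7). Each of these 5 medians kept its sign in the 10 other settings run, and whether shifts of this size exceed the spread between cultures was not tested.

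The hypoxia and glycolysis list had 10 of 21 members higher in 1D and 11 lower, with a median of -0.02. Of its members 5 were lower in 1D by more than 0.5 log2 units: Adm, Hk1 (hexokinase, -0.91), Slc2a1 (the glucose transporter GLUT, -0.78), Ndrg1 (-0.76) and Vegfa (-0.52). Slc2a1 had 0.742 in 1D and 1.41 in 20B, against 1.00 in 11B, 0.813 in 30 and 1.13 in 42 on its first probe set, and its other probe sets pointed the same way. Hk1 had 0.562 in 1D and 1.20 in 20B, against 2.11 in 11B, 0.436 in 30 and 1.00 in 42. Vegfa, the vascular growth factor, had 0.769 in 1D and 1.5 in 20B on one probe set, and 1.00 in 1D and 1.05 in 20B on the other. Among antioxidant genes, Gsta3, a glutathione transferase, was 1.02 higher in 1D, opposite to Sod3 and Hmox1. In the matrix list Vcan was higher in 1D and the crosslinking enzyme gene Loxl1 lower (-1.13), and 15 of 22 members were lower. Among sarcomere, smooth muscle and calcium genes Tnnc1, cardiac troponin C, was 1.25 higher in 1D, with ratios of 2.14 in 1D and 0.896 in 20B, against 1.03 in 11B, 1.00 in 30 and 0.304 in 42. Ptgis, prostacyclin synthase, had 1.45 in 1D and 0.715 in 20B, both far below the 8.24 of clone 30.

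Genes that differed between 1D and 20B lay near each other on the chromosomes in many cases. Gene order was taken from RefSeq. Of the 118 genes, 47 (39.8%) belonged to 15 runs of at least 2 genes that differed the same way, with at most 5 measured genes between neighbours. Of these runs 6 held 3 or more such genes. The share that this rule gives for genes placed at random, or in other pairs of clones, was not computed. Chromosome 3, with 457 measured genes (4.85% of all), held 14 of the 59 genes higher in 1D (23.7%) and none of the lower. Chromosome 13, with 349 measured genes (3.70%), held 11 of the higher genes (18.6%) and 12 of the lower (20.3%), so that 6.59% of its measured genes were 2-fold apart. Chromosomes 6, 12 and 15, with 483, 321 and 375 measured genes, held none.

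The longest run on chromosome 3 held Rap2b, Gmps, Ccnl1, Shox2, Trim59, Kpna4 and Nmd3. Of the 18 measured genes that it spans 16 were higher in 1D, and their median difference was 0.74. Gmps, an enzyme of guanine nucleotide synthesis, had ratios of 2.63 in 1D and 1.00 in 20B, against 0.815 in 11B, 0.777 in 30 and 1.40 in 42. Ccnl1, a cyclin linked to splicing, had 2.45 in 1D and 1.00 in 20B, against 0.696 in 11B, 0.757 in 30 and 1.26 in 42. Both were highest in 1D, with 42 next. A second run nearby held Alg5, Spg20 and Nbea. Over the stretch from Alg5 to Nmd3, with bounds set after the values were seen, 31 of 36 measured genes were higher in 1D and 5 lower. The median log2 ratio there was 0.42 in 1D and 0.00 in 20B, against -0.03 in 11B, -0.22 in 30 and 0 in 42. It was 1D that stood apart along this stretch.

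Chromosome 13 had both directions. From Larp4b to Zkscan3, near its start, 31 of 34 measured genes were lower in 1D and 2 higher, and 12 were at least 2-fold lower. These were Larp4b, Dip2c, Zmynd11 and Ero1b in one run, and Hecw1, Mrpl32, Psma2, Cdk13, Rala, Stard3nl, Trim27 and Zkscan3 in another. Mrpl32 had ratios of 0.662 in 1D and 1.37 in 20B, against 0.793 in 11B, 1.00 in 30 and 1.01 in 42. Psma2 had 0.767 in 1D and 1.54 in 20B, against 0.893 in 11B, 1.28 in 30 and 1.00 in 42. The 2 genes whose promoters overlap thus differed by similar amounts, with 1D lowest and 20B highest of the 5 clones in both. The median log2 ratio of the stretch was -0.17 in 1D and 0.25 in 20B, against -0.05 in 11B, 0 in 30 and 0 in 42, with 1D and 20B on opposite sides. Relative to the median of 11B, 30 and 42, gene by gene, 20B lay at a median of 0.26 and 1D at -0.08. By this median over all 34 genes 20B was the farther of the pair. Among the 12 at least 2-fold lower, 20B was the farther in Larp4b, Ero1b, Hecw1 and Psma2. In the rest of the 12 it was 1D, most of all in Trim27. Beyond this stretch, from Thoc3 to Parp8, 141 of 200 measured genes were higher in 1D and 58 lower. Of these genes 11 were at least 2-fold higher and none 2-fold lower, with a median of 0.04.

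Near the start of chromosome 2, from Dnajc1 to Yme1l1, 14 of 15 measured genes were lower in 1D. Arhgap21, Abi1, Mastl and Yme1l1 formed a run in which all 6 measured genes were lower, by a median of -1.30. Mastl, a kinase of mitotic entry, gave 0.988 in 1D and 5.28 in 20B on one probe set but 1.04 in 1D and 0.995 in 20B on the other. Relative to the median of 11B, 30 and 42, 20B lay at a median of 0.22 and 1D at -0.02 in this stretch. By this median 20B was the clone that stood apart, although in Dnajc1 and Arhgap21 it was 1D. Averaged over windows of 9 neighbouring genes by their median, 36 of 9259 windows reached 0.5 log2 units or more and 24 reached -0.5 or less. Chromosome 3 held 15 and chromosome 13 held 13 of the first, and chromosome 13 held 10 of the second. In 6 other processing settings none of the stretch medians changed sign. Every stretch begins and ends at a gene 2-fold apart in these same values, so this is no test of stability.

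**Figure D3:**
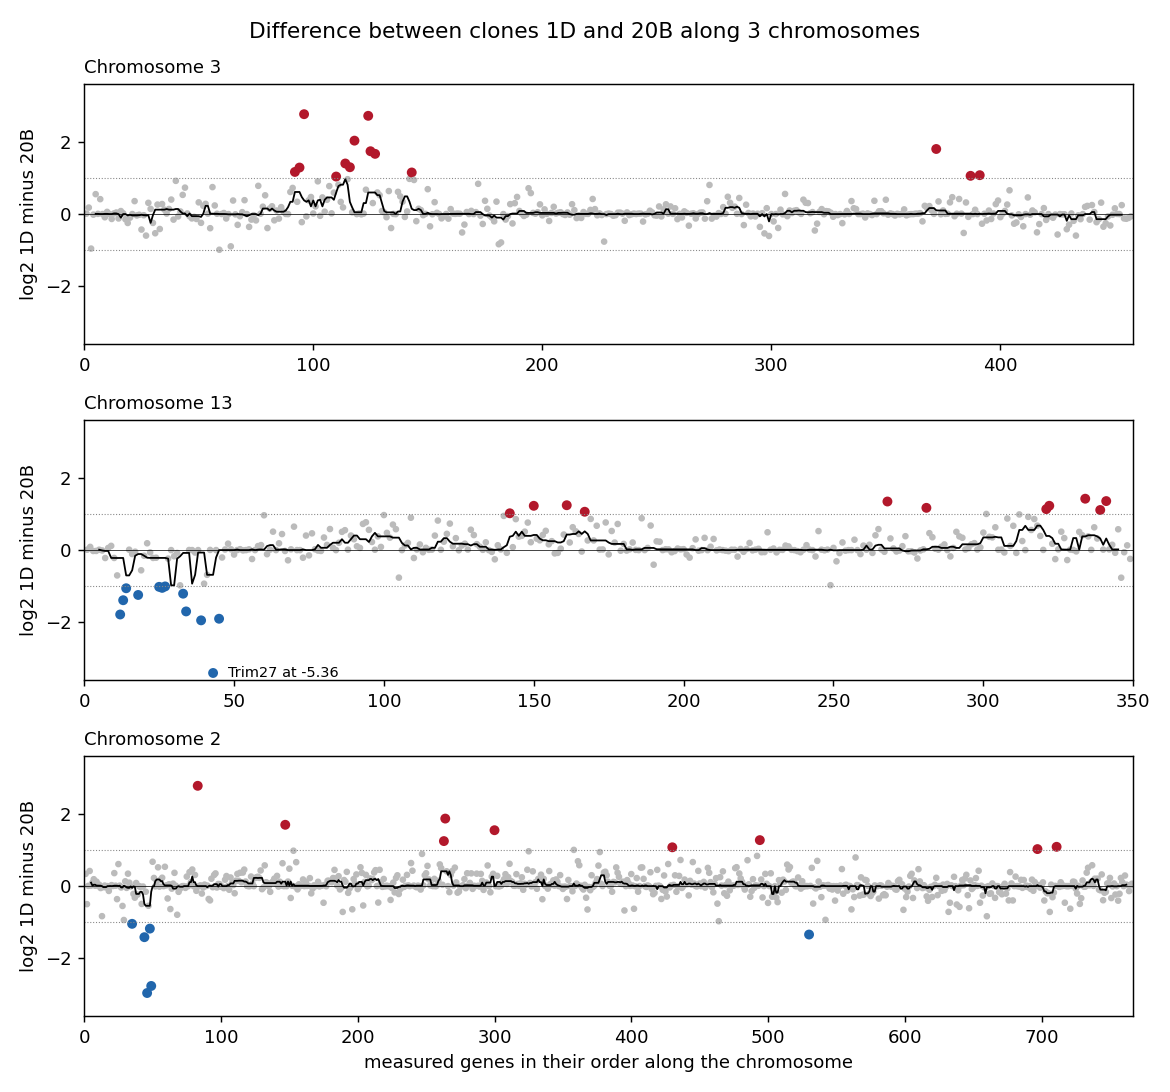
Log2 difference, 1D minus 20B (vertical axis), of each measured gene along chromosomes 3, 13 and 2, in gene order (horizontal axis); the black line is the median of 9 neighbouring genes. Red and blue points are at least 1 log2 unit higher or lower in 1D. They gather on 1 stretch of chromosome 3 and at opposite signs on chromosome 13. On chromosome 2, 5 of 6 blue points lie near the start, and the 9 red points are scattered apart from the neighbours Dlx1 and Dlx2.

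Few genes marked the 2 clones off from the rest together. By gene means, both lay at least 2-fold above each of 11B, 30 and 42 in 6 genes (0.0636%) and at least 2-fold below in none (0%). A single probe set could still lie 2-fold below, as for Pdgfra further on. The 6 were Trim59, Tbc1d23, Rgs3, Alkbh3, Lama5 and Slc39a6. None of them kept the call when every probe set of a gene was averaged, flat ones included, and the probe set with the highest mean gave 15 genes, these 6 among them. Rgs3, which shortens signals of G protein coupled receptors, had ratios of 2.73 in 1D and 2.90 in 20B, against 1.00 in 11B, 0.910 in 30 and 0.997 in 42. Tbc1d23, a tethering protein of the trans-Golgi, had 3.22 in 1D and 2.88 in 20B, against 1.00 in 11B, 0.991 in 30 and 0.996 in 42. In both genes the 2 clones were close to each other and the other 3 lay level. For Tbc1d23 the ratios of the other 3 recurred on 41 other probe sets, which leaves the extent of its gap unsure. Lama5, the laminin alpha chain of many basement membranes, had 3.16 in 1D and 2.13 in 20B, against 1.00 in 11B, 0.116 in 30 and 0.151 in 42. Its gap of 1.09 was set by 11B, with 30 and 42 far lower. Alkbh3, a DNA and RNA demethylase, had 2.12 in 1D and 1.87 in 20B, against 0.851 in 11B, 0.843 in 30 and 0.841 in 42, values divided by a floor. Slc39a6, a zinc importer, reached 6.50 in 1D and 3.54 in 20B, against 0.585 in 11B, 0.407 in 30 and 1.00 in 42 on one probe set, while another was nearly flat, with 1.00 in 1D and 1.10 in 20B. On that one the ratios of 11B, 30 and 42 recurred on 13 other probe sets, and 2 of the 3 measured probe sets are of types that can bind more than 1 transcript.

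At 1.5-fold the pair shared 18 genes above the rest (0.191%) and 4 below (0.0424%). Those above included Cd36, a fatty acid transporter, with 1.85 in 1D and 2.56 in 20B, against 1.00 in 11B, 0.991 in 30 and 0.739 in 42. They also included Me1, malic enzyme, with 1.71 in 1D and 2.00 in 20B, against 1.00 in 11B, 0.510 in 30 and 0.684 in 42. Ahr, the aryl hydrocarbon receptor, and Smc2, a condensin subunit, were further members. Below the rest were Ndufa4, a subunit of the respiratory chain, with 0.610 in 1D and 0.554 in 20B, against 1.18 in 11B, 1.46 in 30 and 1.00 in 42. Mt2, the metal-binding metallothionein, had 0.627 in 1D and 0.633 in 20B, against 1.02 in 11B, 1.00 in 30 and 1.13 in 42. The other members below were Scaf1 and 3000002C10Rik. Other pairs shared more or fewer genes by the same count. Clones 30 and 42 shared 3 genes 2-fold above and 17 below the rest, and 11B and 20B shared 2 above and none below.

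**Figure D4:**
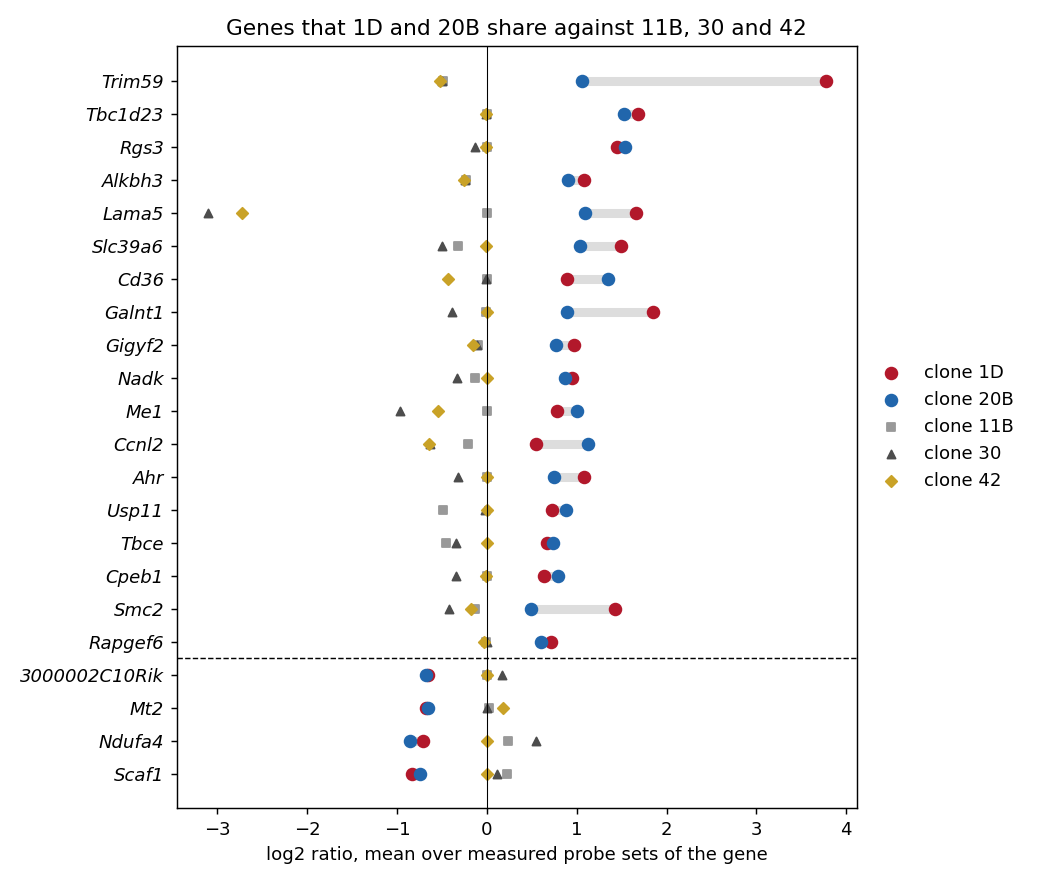
Log2 ratio of each clone (horizontal axis) for the 18 genes in which 1D and 20B both lay at least 1.5-fold above 11B, 30 and 42, above the dashed line, and the 4 in which both lay at least 1.5-fold below. Grey bars join 1D and 20B, which lie close together for most genes and far apart for Trim59.

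How many genes the pair shares depends on the clone it is set against. Against 30 and 42 alone, leaving out 11B, 26 genes lay 2-fold above and 5 below, led by Cd81, Lama5 and Nbea above and by Cdh13 below. Cdh13, the cadherin anchored in the membrane by a lipid, had 0.924 in 1D and 1.00 in 20B, against 0.281 in 11B, 8.48 in 30 and 6.65 in 42 on its first probe set. Clones 30 and 42 were far above the pair, and 11B was well below it. Leaving out 30 gave 9 genes above and 1 below. That set included Hspb1, a small heat shock protein, with 1.15 in 1D and 1.12 in 20B, against 0.403 in 11B, 1.00 in 30 and 0.342 in 42, and below it Mmp3, the matrix protease stromelysin. Leaving out 42 gave 20 above and none below, led by Tgfa, a ligand of the EGF receptor.

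The study's title concerns SDF-1, the chemokine encoded by Cxcl12, on which the 2 clones lay level. Measured probe sets of Cxcl12 had 0.984 in 1D and 0.987 in 20B, and 0.997 in 1D and 1.00 in 20B. Its receptor Ackr3 had 1.14 in 1D and 1.01 in 20B, and Cxcr4 was at the floor in both. Kit, which encodes c-kit, had 1.00 in 1D and 1.18 in 20B on its measured probe set, and Pou5f1, which encodes Oct-4, was not measured. Mef2c, a cardiac and vascular transcription factor, had 2.13 in 1D and 1.77 in 20B, against 1.00 in 11B, 0.154 in 30 and 0.773 in 42 on one probe set. Among the markers of other cell types 1 differed at least 2-fold, the mast cell and basophil protease gene Mcpt8, with 0.544 in 1D and 1.56 in 20B, while Ptprc, the pan-leukocyte marker, was not measured in any clone. Of 8 endothelial markers only Eng was measured, and Pecam1, Cdh5, Kdr and Tek were not. Of 11 markers of mesenchymal stroma and fibroblasts 6 were measured, and their gene means differed by at most 0.03 log2 units. For Pdgfra and Col1a1 the mean hid probe sets that pointed opposite ways. Pdgfra had 0.823 in 1D and 1.00 in 20B on one. On another it had 0.358 in 1D and 0.304 in 20B, against 1.00 in 11B, 1.63 in 30 and 2.21 in 42. There both clones lay at least 2-fold below each of 11B, 30 and 42, which its other measured probe sets did not show. Col1a1 had 1.05 in 1D and 1.00 in 20B on its first probe set, and 1.00 in 1D and 1.05 in 20B on its second. Cd44 had 1.19 in 1D and 1.17 in 20B, and Eng, Vcam1 and Postn were measured too. Dcn, Tcf21, Thy1 and Col1a2 were below the floor in both clones. Krt8, a keratin of mesothelium, was 0.69 higher in 1D. The other measured markers of its list did not follow it and were level or slightly lower in 1D. Krt18 had 1.00 in 1D and 1.05 in 20B, Upk3b 0.568 in 1D and 0.598 in 20B, and Msln 1.00 in 1D and 1.005 in 20B. A marker at or below the floor may be absent or too dim to see, since ratios hold no detection call.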

How the data were processed

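Total RNA of 5 clones was measured on 1 array each, so each clone is its own group and no p-value was computed. The authors' deposited table holds a linear ratio per probe set, as read from the values: 18926 of 45101 probe sets have a median of exactly 1 over the arrays and the other 26175 a lower one. The submitters' processing notes name RMA and GCRMA but neither their versions nor their roles. Probe sets were kept as measured with a median of 1 or a clone above 1, and a range over 0.05 log2 units. Of 34945 probe sets with 1 gene symbol 13953 were measured, for 9435 genes, and log2 ratios were averaged per gene. The text names the 12 genes farthest apart each way with at least 1 clone of the pair at or above 1, up to 4 members of a list, and the genes both clones share; a few others were added after their values were seen. Members, lists and stretches were chosen with earlier results of these data known. Symbols, gene order and promoters came from RefSeq tables. The calculation was tested on simulated data and run in Python 3.11.15 with pandas 2.3.3 and numpy 2.4.6. The number of arrays limits the precision.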

Additional observations from a re-analysis of the deposited data

How the results depend on the processing

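The 1361 values of single genes under the other settings cover only the 118 genes 2-fold apart and the 6 shared above the rest. None changed direction, but these genes had been chosen for a large difference, so this is no test of stability over all genes. Of the values, 138 moved by more than 0.31 log2 units. Some list medians near 0 changed sign: 21 of 270 had the other sign, in 11 of 27 lists, all with a median within 0.02 of 0. Counts moved more. Beside 59 genes higher in 1D, 59 lower and 6 shared above the rest, quantile normalization gave 96 lower. Averaging every probe set, measured or not, gave 31 higher, 35 lower and 0 shared above, and the probe set with the highest mean gave 127 higher and 15 shared above. Genes with at least 2 probe sets, a setting added after seeing the data, gave 15 higher and 19 lower of 3047 genes (1.12%, against 1.31% of genes with 1 probe set). A size of 1.5-fold gave 333 higher, 310 lower, 18 shared above and 4 below; 2 log2 units gave 4 higher, 8 lower and 0 shared above. Without clone 11B the pair shared 26 genes above and 5 below, without clone 30 it shared 1 below, and without clone 42 it shared 20 above. Against 60 windows of 9 genes at 0.5 log2 units or beyond, windows of 5 genes gave 144, windows of 15 genes gave 21, and leaving out chromosomes 3 and 13, also added later, gave 22. Of the 118 genes 2-fold apart 108 kept the call after quantile normalization and 66 with every probe set averaged. The widest ranges over the settings were those of Trim27 (-6.02 to -2.68), Arhgap21 (-2.79 to -0.04), Yme1l1 (-3.24 to -0.71), Kcnq1ot1 (-2.50 to -0.04), Sarnp (-4.65 to -2.22) and Ppp2r2c (-3.21 to -0.94); the cause was not tested. No paired analysis was possible because each clone had 1 array and the labels give no replicate numbers.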
